A study of Mus musculus with 6 samples.

Results

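Matrix metalloproteinases and their tissue inhibitors were measured in the stria vascularis, a layered epithelium of the cochlea with its own capillaries, whose marginal cells supply the endolymph with potassium. The genes were Mmp2, Mmp3, Mmp11, Mmp13, Mmp14 and Mmp15 and the 4 inhibitors Timp1, Timp2, Timp3 and Timp4, chosen by name, with Mmp9 left out of the set. A probe set, a group of short probes on the array, was taken when its platform annotation gave exactly 1 of these symbols. This gave 21 of the 45037 probe sets that are not controls, for 9 of the 10 genes, and no probe set was named Mmp15. Total RNA came from mice at postnatal day 10, before the onset of hearing, in 3 arrays of Slc26a4 heterozygote mice (replicates 1, 3 and 5) and 3 arrays of Slc26a4 knockout mice (replicates 2, 4 and 6). Slc26a4 encodes the anion exchanger pendrin, which cells of the inner ear use to secrete bicarbonate, so the control animals also carried 1 disrupted copy. The labels give no strain, sex or type of mutation, and do not say whether an array held 1 animal or a pool, so the spread between arrays may be partly technical.

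Metalloproteinases are zinc-dependent enzymes, made as inactive precursors, that cut collagens, laminins and other proteins of the extracellular matrix. Tissue inhibitors bind the active site of the enzymes. Mmp14, which is anchored in the cell membrane, joins Timp2 at the cell surface to activate the precursor of the gelatinase Mmp2. Basement membranes of capillaries such as those of the stria contain collagen IV and laminin, which gelatinases cut.

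The promoters of Mmp13 and Mmp3 are printed because their genes were among the dimmest of the set, and that of Timp3 because its gene was among the brightest and was the one member with probe sets whose genotypes did not overlap. They are the 250 bases before the RefSeq gene start in build GRCm38.p6, and 9 of the 10 genes, all but Mmp2, had an entry. The Mmp13 window is chr9:7272264-7272513, the Mmp3 window chr9:7445572-7445821 and the Timp3 window chr10:86300162-86300411, each on the plus strand and written 5′ to 3′. Capitals mark matches to TATAAA (the TATA box), TGANTCA (the AP-1 site) or AACCACA (a RUNX site), each searched on both strands.
Mmp13: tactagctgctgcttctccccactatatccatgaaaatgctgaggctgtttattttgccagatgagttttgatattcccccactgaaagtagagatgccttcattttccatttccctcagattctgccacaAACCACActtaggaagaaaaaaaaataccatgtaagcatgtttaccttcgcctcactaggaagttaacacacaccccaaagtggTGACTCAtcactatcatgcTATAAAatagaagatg
Mmp3: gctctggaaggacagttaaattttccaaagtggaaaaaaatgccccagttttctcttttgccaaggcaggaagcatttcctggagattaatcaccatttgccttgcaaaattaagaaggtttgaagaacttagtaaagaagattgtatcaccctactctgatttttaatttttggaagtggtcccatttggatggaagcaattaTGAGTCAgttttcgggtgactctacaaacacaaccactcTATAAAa
Timp3: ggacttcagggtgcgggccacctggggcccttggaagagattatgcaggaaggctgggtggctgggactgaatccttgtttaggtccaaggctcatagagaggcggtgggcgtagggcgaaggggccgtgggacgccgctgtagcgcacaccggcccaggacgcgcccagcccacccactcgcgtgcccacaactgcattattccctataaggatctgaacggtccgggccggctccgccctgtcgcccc

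Mmp13 held each of the 3 motifs and Mmp3 held the TATA and AP-1 letters, while the other 7 windows held none. Over all 32851 promoter windows of this length, 12.4% held the TATA letters, 6.75% the AP-1 letters and 4.4% the RUNX letters. G and C made up 40.4% of the Mmp13 window and 37.6% of the Mmp3 window, against 65.6% for Timp3 and 68.0% for Timp2, with a median of 52.4% over all windows. Timp4, also dim here, had 53.6% and none of the motifs. A match describes letters in a window and is not evidence of a bound site.

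Signals below are the deposited values in the arrays' arbitrary linear units. Probes differ in how strongly they bind, so the order of brightness between genes need not be the order of transcript amounts, as the probe sets of Timp2 show. Its 6 probe sets had means over the 6 arrays from 134 to 5152, a 38.3-fold spread for 1 gene. The spread was 7.53-fold over 3 probe sets of Mmp14, 6.14-fold over 4 of Timp3 and 1.18-fold over 2 of Mmp2. The genes are therefore ranked only by their brightest probe set and as a description.

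Timp2, Timp3 and Mmp2 formed the bright end of the set. Timp2, an inhibitor that also takes part in activating Mmp2, had a mean of 5152 over the 6 arrays (lowest 4613, median 5206, highest 5812). Timp3, an inhibitor that binds to the matrix and also blocks several ADAM and ADAMTS proteases, had 5022 (lowest 4063, median 4986, highest 5859). Mmp2, a gelatinase, had 4649 (lowest 3783, median 4778, highest 5099). These 3 probe sets lay between the 95.9th and the 98.6th percentile of all probe sets on every array, their ranges overlapped, and Timp2 was brighter than Timp3 on 3 of 6 arrays.

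Mmp14 followed with a mean of 1251 and a range from 1081 to 1365, below Mmp2 on 6 of 6 arrays. Timp1, an inhibitor that is induced by cytokines in many tissues, had a mean of 346 but ran from 103 to 730. Mmp11, a secreted metalloproteinase of stromal cells, had 128, with a range from 97.5 to 169 that overlapped with that of Timp1. The remaining genes lay under the level set for testing, the 40th percentile of mean log2 level, which corresponds to a signal of about 43.9. Mmp3, or stromelysin, had a mean of 30.7, Mmp13, a collagenase of cartilage and bone, 26.7, and Timp4, an inhibitor with a narrow tissue range, 15.7. The ranges of these 3 genes overlapped, and their order is not settled.

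**Figure D1:**
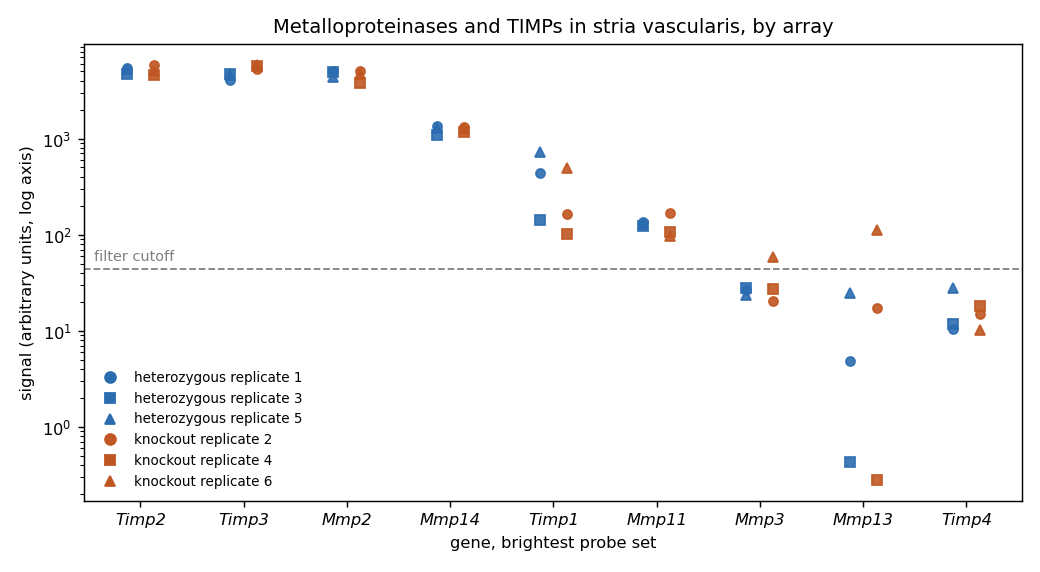
Signal on each array (log axis, arbitrary units) of the brightest probe set of each gene, with heterozygous arrays in blue and knockout arrays in orange and a dashed line at the filter cutoff of 43.9. Timp2, Timp3 and Mmp2 lie together near the top, while Mmp3, Mmp13 and Timp4 lie mostly under the line and Mmp13 reaches 113 on 1 knockout array.

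Mmp3 and Mmp13 belong to a run of 10 metalloproteinase genes on chromosome 9. Of these, 9 had a probe set, and the brightest probe sets of all 9 lay under the level set for testing, with means from 1.22 to 30.7. The members above that level, Mmp2, Mmp11 and Mmp14, lie on chromosomes 8, 10 and 14. Timp1, Timp3 and Timp4 lie within the spans of the synapsin genes Syn1, Syn3 and Syn2, which encode synaptic vesicle proteins. The host of Timp3, Syn3, read 86.3 ± 25.5 (SD, n = 3) in heterozygous and 68.4 ± 20.7 (SD, n = 3) in knockout samples, with overlapping groups and the lower mean in knockout samples.

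Differences between the genotypes were tested with limma on log2(signal + 16), a scale that understates the change of dim genes, over the 27022 probe sets above the level set for testing. Of the 21 member probe sets 17 were tested, 6 of metalloproteinases and 11 of inhibitors, and none passed at an adjusted p of 0.05 (limma, adjusted p from 0.370 to 0.994). Of all tested probe sets 1 passed, for the growth factor Fgf18, which is 0.0037% of them. Fgf18 was kept for testing only through its knockout arrays (mean 276), as its heterozygous mean of 42.3 was under 43.9. At an unadjusted p under 0.05, 3 member probe sets were higher in knockout samples and none lower, where 9.14% of all tested probe sets were higher and 2.47% lower. Among tested probe sets with a single gene symbol, 5.33% were higher and 2.66% lower. All 3 belong to Timp3, so they are 1 gene's signal read by several probe sets. The median log2 difference was 0.0029 over the 17 member probe sets and -0.0044 over all tested.

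**Figure D2:**
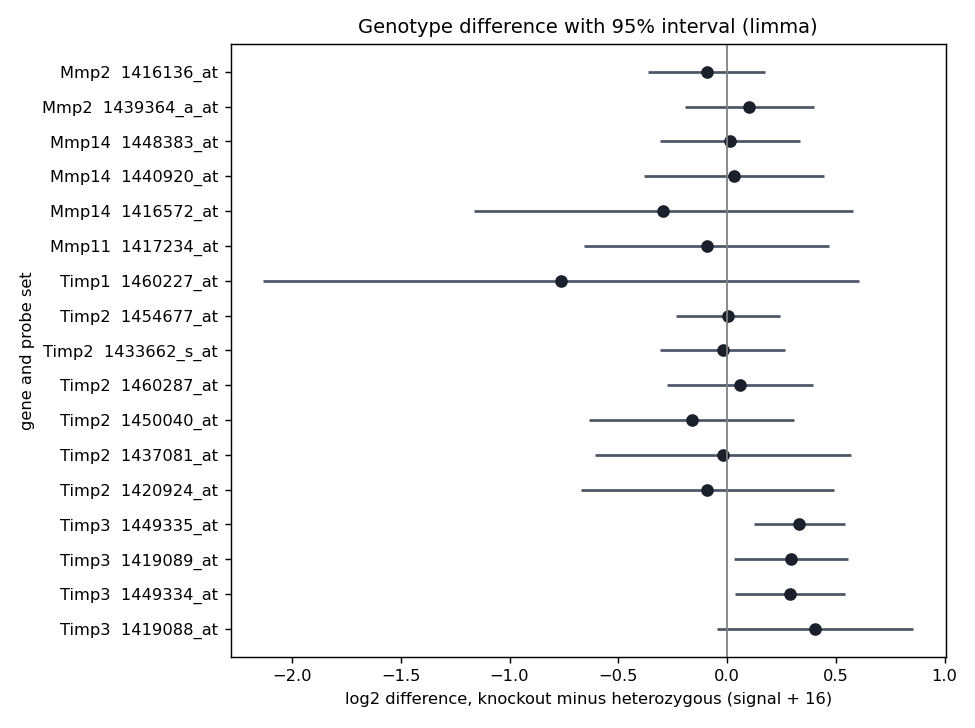
Log2 difference, knockout minus heterozygous, of each tested probe set (point) with its 95% interval from limma (line), on the x axis, with genes and probe sets on the y axis. The 4 Timp3 probe sets lie between 0.29 and 0.41, and the intervals of the Mmp2, Mmp14, Mmp11, Timp1 and Timp2 probe sets span 0.

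The gelatinase and its activator gave no difference beyond the spread between arrays. On its brightest probe set (1416136_at), Mmp2 stood at 5040, 4898 and 4416 in heterozygous replicates 1, 3 and 5 and at 5099, 3783 and 4659 in knockout replicates 2, 4 and 6. The groups overlapped, with the highest and the lowest value both in knockout samples. The log2 difference was -0.093 with a 95% interval from -0.36 to 0.18 (limma adjusted p = 0.808). The other Mmp2 probe set (1439364_a_at, built to read several transcripts of the gene) gave 0.10, with an interval from -0.19 to 0.40. That value was 0.0100 without knockout replicate 4 and 0.25 without knockout replicate 6, where the unadjusted p in limma was 0.0296. In knockout replicate 4 it had its highest value of the 6 arrays (4592), where the first had its lowest (3783), so the 2 probe sets of Mmp2 disagreed most on that array.

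Mmp14 stood at 1365, 1081 and 1297 in heterozygous and at 1318, 1176 and 1271 in knockout samples on its brightest probe set. The knockout values lay inside the heterozygous range, and the log2 difference was 0.013 (95% interval -0.31 to 0.34, limma adjusted p = 0.981). A second probe set gave 0.030 (interval -0.38 to 0.44). The dimmest (1416572_at) gave -0.29 with a wide interval from -1.17 to 0.58. It read 62.4 in knockout replicate 4 against 148 to 223 on the other arrays, and its difference was 0.20 without that array. Mmp11 stood at 137, 125 and 130 in heterozygous and at 169, 107 and 97.5 in knockout samples. Its heterozygous values lay inside the knockout range, and the log2 difference was -0.094 (interval -0.66 to 0.47, limma adjusted p = 0.916).

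Timp3 was the member whose genotypes stood apart, though it did not pass over all probe sets. On its brightest probe set (1449335_at) the signal was 4063, 4713 and 4562 in heterozygous and 5259, 5675 and 5859 in knockout samples. Every knockout value lay above every heterozygous value, with means of 4446 ± 340.0 and 5598 ± 308 (SD, n = 3 each). The difference was 1.26-fold (log2 difference 0.33, standard error 0.094, 95% interval 0.12 to 0.54, limma adjusted p = 0.370). With 3 arrays against 3 the exact permutation test, two-sided, cannot go below 0.1, and p = 0.1 is what it returned.

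The other Timp3 probe sets lay on the same side. On 1419089_at the values were 2812, 3540.0 and 3303 in heterozygous and 3590.0, 3971 and 4259 in knockout samples, a log2 difference of 0.29. On 1449334_at they were 2536, 2699 and 2345 against 2804, 3144 and 3326, a log2 difference of 0.29. In both the groups did not overlap, but the gap was narrow, as heterozygous replicate 3 and knockout replicate 2 differed by less than the SD within either group. On the dimmest (1419088_at) the values were 654, 723 and 702 against 1181, 695 and 955. Here the groups overlapped, as knockout replicate 4 lay among the heterozygous values, and the log2 difference was 0.41 (limma adjusted p = 0.471). Over all 45037 probe sets the groups did not overlap with knockout higher for 10.4% and with knockout lower for 5.23%. Of the 21 member probe sets it was 3 and 0, and all 3 belong to Timp3. By brightest tested probe set, knockout samples were all higher for 6.05% of 12428 genes and 1 of 6 member genes. They were all lower for 7.03% of genes and for none of the members. A count of 1 gene is not read as a result about the members.

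The 4 log2 differences of Timp3 lay from 0.20 to 0.61 when single arrays were left out. At an unadjusted p under 0.05 there was 1 Timp3 probe set in place of 3 without heterozygous replicate 1, without heterozygous replicate 5 and without knockout replicate 6. Without knockout replicate 4 the 4 differences were 0.32, 0.29, 0.27 and 0.61. The median signal of the arrays was 82.3, 76.7 and 81.1 in heterozygous and 89.9, 105 and 88.8 in knockout samples. Every knockout median thus lay above every heterozygous one, and the cause was not tested. Centring the arrays on their medians moved the median difference of all tested probe sets to -0.20. It moved the brightest Timp3 probe set to 0.13, where that probe set no longer separated the genotypes. Centring shifts every probe set by the same amount, so the distance of this probe set from that median, 0.34, could not change. Of 9 chondrocyte markers 6 were tested, with 4 higher and 2 lower (Matn1 and Comp) in knockout samples, and 1, Col2a1, had an unadjusted p under 0.05 and groups that did not overlap. Their summed signal, mostly from Col2a1, Col9a1, Sox9 and Acan, was 17294 to 18341 in heterozygous and 19939 to 24881 in knockout samples, with Col10a1, Matn3 and Ihh under the level set for testing. The sums of the other cell type lists overlapped between the genotypes. That of osteoblast and osteocyte genes was 3959 to 8088 in heterozygous and 7708 to 13167 in knockout samples. Of 6 such genes tested, 5 were higher and 1 lower. In limma 4 were higher at an unadjusted p under 0.05, and 3 had groups that did not overlap. Their median log2 difference was 1.13, against 0.22 for chondrocyte markers. Over all genes tested, 3.15% were higher at that p and 6.05% had knockout samples all higher. Within knockout samples the chondrocyte sum was highest in replicate 4 (24881) and lowest in replicate 6 (19939), where 1449335_at was highest (5859). The part of chondrocytes or bone cells in the Timp3 difference was not tested. In tissue RNA more cells of a type and more RNA per cell cannot be told apart.

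**Figure D3:**
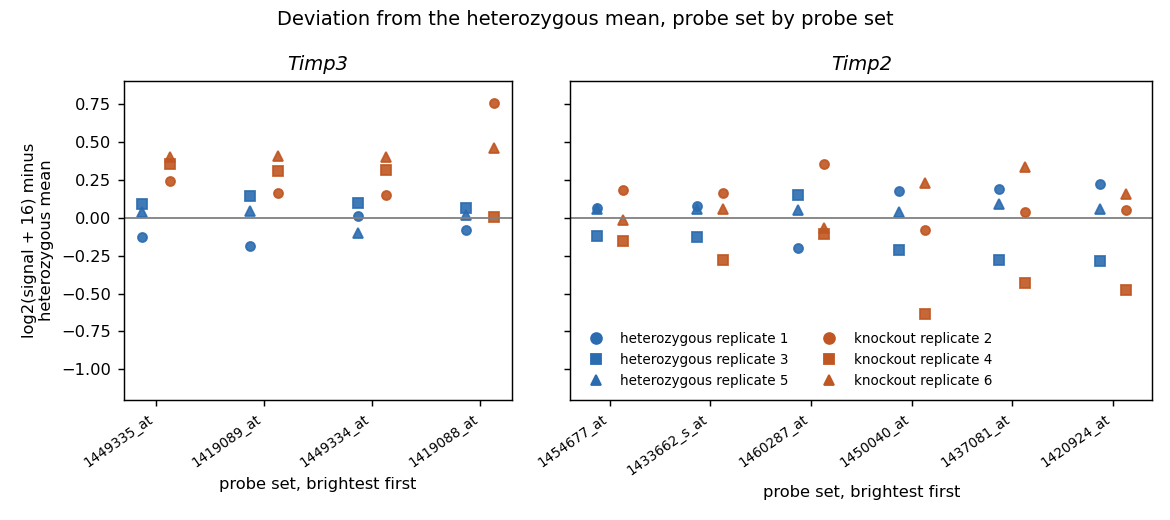
Deviation of log2(signal + 16) from the heterozygous mean (y axis) on each array for the 4 probe sets of Timp3 and the 6 of Timp2 (x axis, brightest first). Knockout arrays lie above all heterozygous arrays on 3 Timp3 probe sets, while knockout replicate 4 is the lowest array on 5 of 6 Timp2 probe sets.

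Timp2 showed no shift of this kind. Its brightest probe set (1454677_at) stood at 5369, 4708 and 5344 in heterozygous and at 5812, 4613 and 5068 in knockout samples. The highest and the lowest value were both in knockout samples, and the log2 difference was 0.0029 (95% interval -0.24 to 0.24, limma adjusted p = 0.994). Over its 6 probe sets, 2 were higher and 4 lower in knockout samples, with log2 differences from -0.16 to 0.060 and overlapping groups throughout. Knockout replicate 4 was the lowest array on 5 of the 6, and without it the 6 differences were all above 0. One of the 6 (1433662_s_at) is of a kind that can share probes with other transcripts, and it gave -0.020.

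Ratios within an array compare changes of a pair of genes on their brightest probe sets. The pairs were chosen after the values were seen, so no p is given. The log2 ratio of Timp3 to Timp2 was -0.40, 0.0016 and -0.23 in heterozygous and -0.14, 0.30 and 0.21 in knockout samples. It was higher by 0.33 in knockout samples on average, but heterozygous replicate 3 lay above knockout replicate 2. The log2 ratio of Timp3 to Mmp2 was -0.31, -0.055 and 0.047 in heterozygous and 0.044, 0.58 and 0.33 in knockout samples, and the groups again overlapped, by a narrow margin. The log2 ratio of Mmp14 to Timp2, the pair that activates Mmp2, ran from -2.11 to -1.96 in heterozygous and from -2.13 to -1.96 in knockout samples.

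Timp1 varied more between arrays of a genotype than between the genotypes. It stood at 442, 142 and 730 in heterozygous and at 166, 103 and 497 in knockout samples. Heterozygous replicate 5 was the highest and knockout replicate 4 the lowest, and the groups overlapped widely. The log2 difference was -0.76 with an interval from -2.13 to 0.61 (limma adjusted p = 0.671). It was -0.27 without heterozygous replicate 5, -0.31 without knockout replicate 4, -1.39 without heterozygous replicate 3 and -1.36 without knockout replicate 6. In the last 2 cases the unadjusted p in limma was 0.0322 and 0.0405, with no adjusted p under 0.05. Heterozygous replicate 5 also had the highest summed signal of 6 root, spindle and outer sulcus cell genes, Slc26a4 among them (19832, against 10271 to 13666 on the other arrays) and of 11 spiral ligament fibrocyte genes (52998, against 41036 to 50459). Knockout replicate 4 had the lowest sum of 8 endothelial genes (2599, against 4786 to 8880). The highest endothelial sum (8880) was in heterozygous replicate 3, where Timp1 was at 142. The root, spindle and outer sulcus sum was also higher on that array (13666) than in heterozygous replicate 1 (11912), where Timp1 was at 442. The part of any of these cell types in the Timp1 values was not tested.

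The dim members lay under the filter cutoff on most arrays. Mmp13 read 4.82, 0.436 and 24.6 in heterozygous and 17.3, 0.281 and 113 in knockout samples. Only knockout replicate 6 rose above the filter cutoff, and the lowest of the 6 values was in a knockout sample too, so the groups overlapped. Mmp3 read 26.3, 28.1 and 23.3 in heterozygous and 20.6, 27.2 and 58.5 in knockout samples, again with the top value in knockout replicate 6. The exact permutation test on the log2 scale, two-sided, returned p = 0.7 for Mmp13 and p = 0.8 for Mmp3. The brighter of 2 Timp4 probe sets read 10.6, 11.9 and 28.0 in heterozygous and 15.1, 18.3 and 10.3 in knockout samples, and the other from 1.17 to 45.7. Both had their highest value in heterozygous replicate 5, and their groups overlapped.

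Mmp9, a gelatinase of osteoclasts that was kept out of the set, had its highest value on the same array as Mmp13 and Mmp3. It read 18.4, 20.4 and 59.9 in heterozygous and 89.9, 147 and 511 in knockout samples (log2 difference 2.19, limma adjusted p = 0.370). A second Mmp9 probe set lay under the level set for testing, and its groups overlapped. Acp5, the acid phosphatase of osteoclasts, read 411 in knockout replicate 6 and 40.1 to 102 elsewhere. The collagen-cutting protease of osteoclasts, Ctsk, read 752 there, and its knockout values were 685, 406 and 752 against 290 to 391 in heterozygous samples. Of 10 osteoclast markers, 6 lay under the level set for testing (Calcr, Oscar, Atp6v0d2, Dcstamp, Ocstamp and Tnfrsf11a), and the summed signal was 6781 to 7497 in heterozygous and 7382 to 8149 in knockout samples. Most of that sum was Car2, which other cells also use and which had its highest value in heterozygous replicate 5 (6710). Tnfrsf11a, the receptor for the osteoclast factor RANKL, was lower in every knockout sample than in any heterozygous one. For 7 osteoblast and osteocyte genes, with Mepe under that level, the sums were 3959 to 8088 in heterozygous and 7708 to 13167 in knockout samples. Knockout replicate 6 had the highest sum of both lists, though knockout replicate 4, where Mmp13 was at 0.281, was close to it for the second (12931). The part of bone cells in the Mmp13 and Mmp3 values was not tested.

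**Figure D4:**
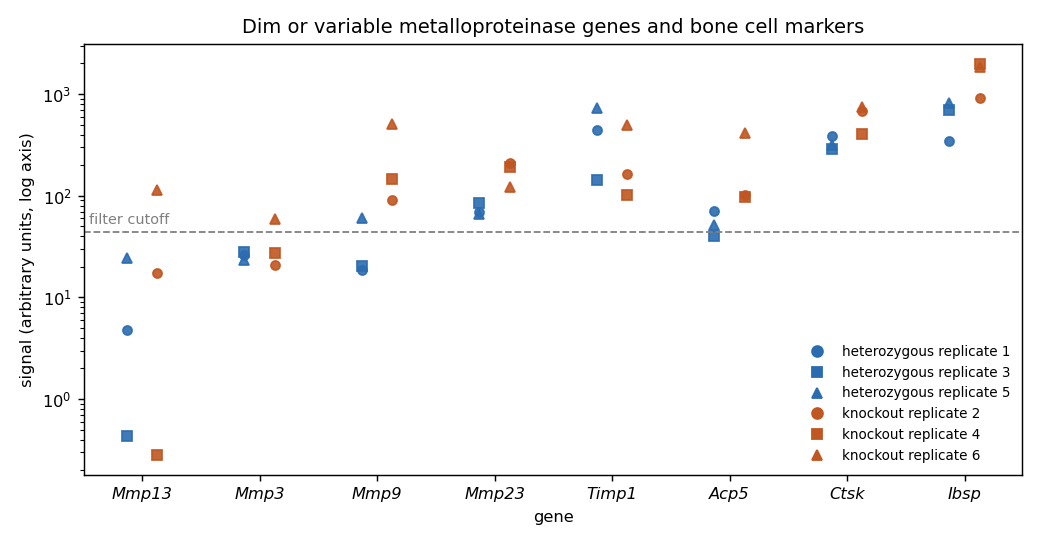
Signal on each array (log axis, arbitrary units) of Mmp13, Mmp3 and Timp1, of Mmp9 and Mmp23, and of the bone cell markers Acp5, Ctsk and Ibsp, with the dashed line at the filter cutoff of 43.9. Knockout replicate 6 is the highest array for Mmp13, Mmp3, Mmp9, Acp5 and Ctsk, and heterozygous replicate 5 for Timp1.

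The wider metalloproteinase system was read from lists of related genes, each gene by its brightest tested probe set. No gene of these lists passed over all probe sets. Over all 12428 genes, 3.15% were higher and 3.2% lower at an unadjusted p under 0.05, 6.05% had knockout samples all higher and 7.03% all lower, and the median log2 difference was -0.038. Of 13 other metalloproteinase genes on the array 4 were tested, with 2 higher and none lower at an unadjusted p under 0.05 and a median of 0.64. The other 9 lay under the level set for testing. Mmp9, among the 2, passed it only through its knockout arrays (mean 249), as its heterozygous mean of 32.9 was under 43.9. A gene kept in this way could hardly count as lower, so neither the count nor the median is read as a result. Mmp23 read 69.3, 85.7 and 66.6 in heterozygous and 209, 190 and 121 in knockout samples, with no overlap and a log2 difference of 1.05 (limma adjusted p = 0.370). Its other probe set did not overlap either, at 9.18 to 36.8 against 51.0 to 73.5. Mmp19 had a log2 difference of 0.23 and overlapping groups.

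Of 14 tested ADAM and ADAMTS genes, which include enzymes that Timp3 inhibits, 1 was higher and none lower at an unadjusted p under 0.05, with a median of 0.059. Adamts10, a protease linked to microfibrils, read 870, 692 and 767 in heterozygous and 1695, 1940 and 939 in knockout samples, with no overlap (log2 difference 0.90, limma adjusted p = 0.370). Adamts4, an aggrecanase, differed by 0.55 with no overlap, and Adamts15 by -0.62 with overlap. Of 15 activators and other inhibitors, 1 was higher and 2 lower, with a median of -0.072. Pcsk6, a proprotein convertase, read 2857, 2904 and 3008 in heterozygous and 2221, 2095 and 2357 in knockout samples, with no overlap (log2 difference -0.39, limma adjusted p = 0.370). The matrix protein Thbs1 had the smallest unadjusted p of this list. It read 312, 530 and 548 in heterozygous and 1556, 1166 and 1206 in knockout samples, with no overlap (log2 difference 1.497, limma adjusted p = 0.153). Spock3, a matrix proteoglycan, differed by -0.72 with no overlap.

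Among 24 tested matrix proteins that metalloproteinases can cut, 14 were higher and 10 lower in knockout samples, with 5 higher and 1 lower at an unadjusted p under 0.05 and a median of 0.14. Col2a1, the cartilage collagen, differed by 0.39, Col1a1, of bone and fibrous tissue, by 1.15, and Col3a1 by 0.36. The knockout samples were all higher for Col2a1 and Col3a1 and overlapped with heterozygous ones for Col1a1. Col2a1, Col9a1 and Acan of this list were also counted as chondrocyte markers, and Col1a1 among the osteoblast and osteocyte genes. Of 13 transcription factors, cytokines and receptors that induce metalloproteinases, 2 were higher and none lower at that p, with a median of -0.058. Egfr read 570.4, 589 and 468 in heterozygous and 862, 865 and 864 in knockout samples (log2 difference 0.66, limma adjusted p = 0.370). Pth1r, the parathyroid hormone receptor of bone and cartilage, differed by 0.56 with no overlap, and Tgfb2 by -0.41 with overlap.

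**Figure D5:**
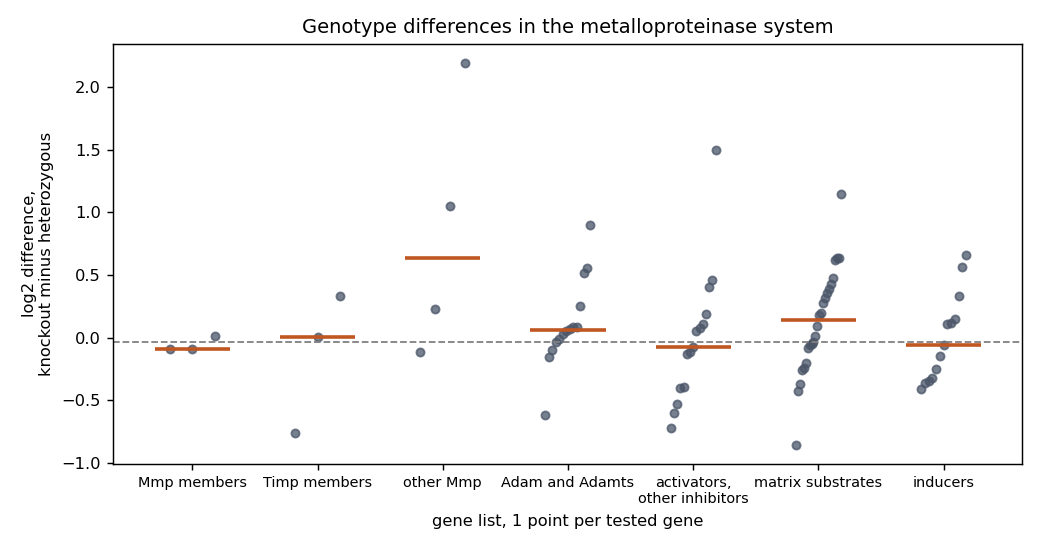
Log2 difference, knockout minus heterozygous (y axis), of each tested gene in the lists of the metalloproteinase system (x axis), with the list's median as an orange bar and the median of all tested genes as a dashed line at -0.038. The members lie between -0.76 and 0.33, and Mmp9 and Mmp23 stand highest among the other metalloproteinases.

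The genes whose pattern over the 6 arrays was most like that of Timp3, by Pearson correlation of log2 values, were Svil (r = 0.985), Morf4l2 (r = 0.982) and Cldn2 (r = 0.981). Of 12427 genes compared, 61 had r above 0.9. Timp3 was taken because it had the smallest unadjusted p of the members, so genes whose genotypes stand apart correlate with it. Over 6 arrays these correlations are a description and not evidence of shared regulation. Svil read 1169, 1373 and 1436 in heterozygous and 1680, 1773 and 1873 in knockout samples. Cldn2 was kept for testing only through its knockout arrays (mean 69.4), as its heterozygous mean of 34.8 was under 43.9.

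The arrays and the targeted gene set the frame for these values. Slc26a4 read 221, 248 and 1006 in heterozygous and 75.5, 106 and 154 in knockout samples, lower in each knockout sample than in any heterozygous one (log2 difference -1.69, limma adjusted p = 0.370). The position of its probe set relative to the disrupted part of the gene is not given in the sources used here. Markers of marginal, intermediate and basal cells were present, with summed signals from 38623 to 49896, although Tyrp1 of the melanocyte list lay under the level set for testing. Knockout replicate 4 stood apart, with a mean correlation of 0.931 with the other arrays against 0.966 to 0.971 for the rest. It was the lowest array for 8 of the 17 tested member probe sets, 5 of them of Timp2. The share over all tested probe sets was not counted, so the 8 are not read as a trait of the members.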

How the data were processed

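Total RNA of the stria vascularis was extracted with a Qiagen kit, labelled with the NuGEN Ovation protocol and hybridised to Affymetrix Mouse 430 2.0 arrays, per the labels. The authors deposited linear signal intensity, 1 value per probe set and array. GCOS is the tool named, per the submitters' processing notes, without a version. The mean signal with 2% cut from both tails was 500.002 on each array, which shows a common scaling before deposit. No genome build applies to them. No scan dates or detection calls were used.

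Genotype and replicate number came from the sample titles. Probe sets were named from the platform annotation, where 34945 of 45037 had 1 symbol, 932 several and 9160 none. The 64 control probe sets were left out. Values were transformed as log2(signal + 16), probe sets under the 40th percentile of the mean log2 level were removed, and 27022 entered limma 3.58.1 under R 4.3.3 (lmFit, eBayes with a variance trend, two-sided, Benjamini-Hochberg, threshold 0.05). Single probe sets also got an exact permutation test. The fit was tested on simulated data. Members, gene lists and tests were chosen with earlier results of these data known, so no p is adjusted over a list. Text names all member probe sets and up to 3 genes per list by smallest p, plus Mmp9, Slc26a4, Fgf18 and the 3 genes most like Timp3. Others, such as Acp5 as a bone marker, follow the lists. Promoter sequences are from RefSeq, GRCm38.p6.

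Alternatives were offsets of 1 and 64, a floor of 32, quantile, cyclic loess and median scaling, no filter or a 60th percentile filter, other variance models, array weights, 1 probe set per gene and leaving out each array.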

Additional observations from a re-analysis of the deposited data

How the results depend on the processing

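No member probe set passed at an adjusted p of 0.05 in limma under any of the 18 alternatives, where 0 to 4 had an unadjusted p under 0.05. Of 291 pairs of a tested member probe set and an alternative, 258 kept their direction and 33 turned it. The filter settings, the other variance models and 1 probe set per gene do not alter a log2 difference, so their pairs could not turn. The 4 Timp3 probe sets and Timp1 turned under none. The number of probe sets called over the whole array, 1 as reported, was 4 with a floor of 32, 3 with quantile scaling, 2 with cyclic loess, 3 with median centring, 25 with array weights and 11 with 1 probe set per gene. It was 0 with no filter and 0 with the 60th percentile filter, where limma gave 4301 and 1527 at an unadjusted p under 0.05, and 0 to 13 when single arrays were left out. It was 13 without knockout replicate 4, and 0 without knockout replicate 2, knockout replicate 6 or heterozygous replicate 5, with 3274, 5225 and 1719 at an unadjusted p under 0.05. The number of member probe sets with an unadjusted p under 0.05, reported as 3, was 0 with median centring, 1 without the variance trend, 1 with 1 probe set per gene, and 1 to 4 when single arrays were left out. These were not always the same probe sets. Without knockout replicate 6 they were Timp3 (1449335_at), Mmp2 (1439364_a_at) and Timp1, and without heterozygous replicate 3 Timp1 joined the 3 of Timp3. The number whose groups did not overlap, reported as 3, was 0 with median centring and 1 with 1 probe set per gene, which tests 6 of the 17. It was 4 with cyclic loess and 3 or 4 when single arrays were left out.

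The differences that turned were as large as -0.29 for Mmp14 (1416572_at) and -0.16 for Timp2 (1450040_at), and the others were at most 0.10 in size. Median centring gave -0.098 for Mmp2 (1439364_a_at), -0.17 and -0.19 for Mmp14 (1440920_at and 1448383_at), and -0.20 and -0.14 for Timp2 (1454677_at and 1460287_at). Quantile scaling gave -0.027 for Timp2 (1454677_at) and cyclic loess 0.00091 for Timp2 (1433662_s_at). Array weights gave 0.041 for Mmp2 (1416136_at), 0.11 for Mmp14 (1416572_at), 0.032 for Mmp11, and 0.037, 0.068 and 0.087 for Timp2 (1420924_at, 1433662_s_at and 1437081_at). Leaving out single arrays gave -0.19 to 0.029 for Mmp2 (1416136_at) and -0.31 to 0.044 for Mmp11, and 0.0100 to 0.25 for Mmp2 (1439364_a_at), which kept its direction. For Mmp14 it gave -0.54 to 0.20, -0.095 to 0.16 and -0.085 to 0.081 (1416572_at, 1440920_at and 1448383_at). For Timp2 it gave -0.23 to 0.10, -0.11 to 0.11, -0.20 to 0.19, -0.36 to 0.074, -0.085 to 0.081 and -0.086 to 0.14 (1420924_at, 1433662_s_at, 1437081_at, 1450040_at, 1454677_at and 1460287_at). The cause of these changes was not tested. No paired analysis was possible because the genotypes share no replicate numbers. The number of arrays, 3 a genotype, limits the precision. The widest intervals were those of Timp1 (-2.13 to 0.61) and Mmp14 (1416572_at, -1.17 to 0.58).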
